A study of Mus musculus with 12 samples.

Results

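The genes described here are 48 genes of the hypoxia response and of glycolysis, chosen by name, and each was found in the table of 17576 genes. By role they are 16 glycolytic enzymes, 7 genes of glucose and lactate transport or of the switches of glycolysis, 7 genes of the HIF subunits and oxygen sensors, and 18 other HIF targets. RNA-seq was carried out on C18-4 cells, a mouse line used in place of spermatogonial stem cells in culture, in 4 groups of 3 libraries. The C18_5251KD group, called KD here, carried lentivirus on the LV3 backbone with a mixture of shRNAs against lncRNA5251 (lncRNA5251 knockdown), and 3NC was its LV3 control with a control shRNA. In the study's supplement the heading for these cells reads lncRNA8276 and the number of mixed shRNAs is not that of its main methods, so the target is given here as labelled. The C18_5251OV group, called OV here, carried the lncRNA5251 sequence on the LV5 backbone (lncRNA5251 overexpression), and 5NC was the LV5 vector. All groups were 1 cell line with a vector, labelled with the strain IRC mouse, and no group without a vector was analysed here. The labels do not say whether the libraries of a group came from separate cultures, so the p-values measure only the spread between these libraries, which may be technical.

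Cells sense oxygen through prolyl hydroxylases (Egln1 and Egln3) that mark the HIF alpha subunits (Hif1a and Epas1) for destruction by the Vhl ubiquitin ligase. When oxygen is low the alpha subunit escapes, pairs with Arnt and binds the hypoxia response element, whose core is ACGTG or GCGTG. Its targets bring glucose in, run glycolysis down to lactate, remove mitochondria, modify collagen and feed back on the sensors. Much of this control acts on the HIF alpha protein, which RNA-seq does not measure.

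The promoters of 43 of the 48 members were matched in the RefSeq table on GRCm38.p6, which gives 250 bases before to 50 bases after a start, and those of Bnip3l, Epas1, Ndrg1, Plod2 and Slc2a3 were not. A gene was counted where any of its promoters held a match. A core on either strand was found in 37 of the 43 genes (86.0%), in 69.0% of the 9195 tested genes with a promoter and in 46.7% of all 27025 genes with one. Counted per promoter, a core was found in 76.6% of the promoters of the members and in 62.8% of those of the tested genes. ACGTG alone was found in 65.1% of the members and in 29.8% of the tested genes. CACGTG, an E-box, contains ACGTG on both strands and was found in 16.3% of the members and in 12% of the tested genes. By role, a core was found in 13 of 16 enzymes, 6 of 6 genes of transport and switches, 4 of 6 subunits and sensors, and 14 of 15 other targets. A match describes letters and is not a measured binding site. The windows printed here hold the core nearest to a start in the members that carried the largest differences, those past the study's threshold (given further on) in any comparison. Each is 5′ to 3′ on the strand of its gene, and capitals mark every core, where CACGT and CACGC are cores read on the other strand.
Bnip3, chr7:138909524-138909553, minus strand: ggctccgccgccGCGTGcgtcccgccccgc
Ldha, chr7:46845817-46845846, plus strand: aaggccccgcccGCGTGctgctctGCGTGc
Slc2a1, chr4:119108697-119108726, plus strand: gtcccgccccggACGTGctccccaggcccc
Hk2, chr6:82774489-82774518, minus strand: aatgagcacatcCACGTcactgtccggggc
Pfkp, chr13:6648777-6648806, minus strand: cgctcgggcgggGCGTGggcggctcctgcg
Aldoc, chr11:78323072-78323101, plus strand: ggaggtatctgtCACGCccccagggagtca
Slc16a3, chr11:120949041-120949070, plus strand: cgtgcgcgggggACGTGccgcgcgacggat
Egln3, chr12:54204086-54204115, minus strand: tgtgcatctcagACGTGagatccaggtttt
Ddit4, chr10:59951868-59951897, minus strand: gacctggaggggGCGTGgcctcgccgggag
Ero1l, chr14:45318618-45318647, minus strand: cgcgcgccgctgCACGTccgcaggggaggc
Ak4, chr4:101419241-101419270, plus strand: gcggcggcggtaGCGTGgagccggctcccg
Stc2, chr11:31370275-31370304, minus strand: cacCACGCaaacGCGTGgccgccgccaggt
Eno2 also passed that threshold and had 0 cores in its promoter, while the promoter shown for Bnip3 had 5 and that for Ldha had 7. Each CACGTG was counted as 2 overlapping cores, and these promoters held 1 in Bnip3 and 2 in Ldha.

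Levels were taken as RPKM, reads scaled to gene length and to library size, from the study's methods, since the header of the table gives no unit. On that reading levels are per length and the number of reads behind a value is unknown. RPKM summed to 533099 to 580920 per library. LncRNA5251 was not found by name, so its level was not analysed here and could not check the labels. Of 16 germ cell and spermatogonial markers 15 were listed, and only Id4 and Uchl1 reached 1 RPKM in at least 3 libraries. Ret and Nanos2, markers of undifferentiated spermatogonia, the germ cell gene Pou5f1 and Kit, a marker of differentiating spermatogonia, were listed at 0 in all 12 libraries. The summed RPKM of the list, mostly that of Id4 and Uchl1, was 75.2 to 84.0 in 3NC, 61.3 to 70.2 in KD, 91.0 to 95.3 in 5NC and 107 to 125 in OV. Of the 10 Sertoli markers, 9 were listed and summed to 60.6 to 72.6 over all libraries. Among them only Wt1, Gata4, Rhox5 and Clu reached 1 RPKM in at least 3 libraries. Acta2, Des and Cnn1 of the myoid markers and Star of the Leydig markers also did. The 4 myoid markers summed to 38.3 to 41.5 in KD and to 21.4 to 32.5 in the other groups, and the 4 listed of 6 Leydig markers to at most 2.39. Their part in the differences given here was not tested, and in bulk RNA fewer cells of a kind and less RNA per cell cannot be told apart.

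Of the 48 members, 45 had at least 1 RPKM in at least 3 libraries and were tested. The other 3 were Slc2a3, a glucose transporter (0 to 0.09 RPKM), Car9, a carbonic anhydrase much used as a hypoxia marker (0.11 to 0.41 RPKM), and Adm, which encodes adrenomedullin (0 to 0.16 RPKM). Changes are differences of log2(RPKM + 1), which understate the change of low genes. They were tested with limma across 11435 genes with Benjamini-Hochberg adjustment. Genes were counted as higher or lower where the adjusted p did not exceed 0.05. The study's threshold asked for an adjusted p not above 0.001 and for a change of at least 1 on the log2 scale in either direction. An exact permutation test of 3 libraries against 3 cannot give a two-sided p below 0.1.

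Most members were lower in the LV5 control than in the LV3 control, and 25 were lower in the knockdown than in the same control. In 5NC against 3NC, 36 of the 45 members were lower and 3 higher, beside 25.6% and 31.0% of all genes tested, with a median log2 fold change of -0.60 against 0.02 for all genes. At the study's threshold 10 members were lower (1.05% of all genes) and 1 was higher (1.56% of all genes). In KD against 3NC, 25 members were lower and 10 higher, beside 23.5% and 31.9% of all genes, with a median of -0.21 against 0.04. With median ratio scaling the counts were 27 lower and 6 higher. At the study's threshold 3 members were lower (1.08% of all genes) and 0 were higher. The threshold was applied here to log2(RPKM + 1), and its counts depend on the pseudocount for low genes. Stc2 and Car12, another carbonic anhydrase, were at 0.413 and 0.478 times their mean RPKM in 3NC and passed the adjusted p, but had log2 fold changes of -0.68 and -0.63 on that scale, and Ankrd37, at 0.484 times in 5NC, had -0.75. In OV against 5NC, 8 members were lower and 6 higher, beside 13.9% and 8.07% of all genes, with a median of -0.01 against -0.03. These counts moved with the scaling, to 8 lower and 12 higher with median ratio scaling and to 5 lower and 2 higher with quantile normalization. By limma, 0 of the 11435 genes passed the study's threshold in that comparison. The study itself, with DEGseq on read numbers, did report genes higher and lower in OV, so the 0 belongs to the test used here.

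**Figure D1:**
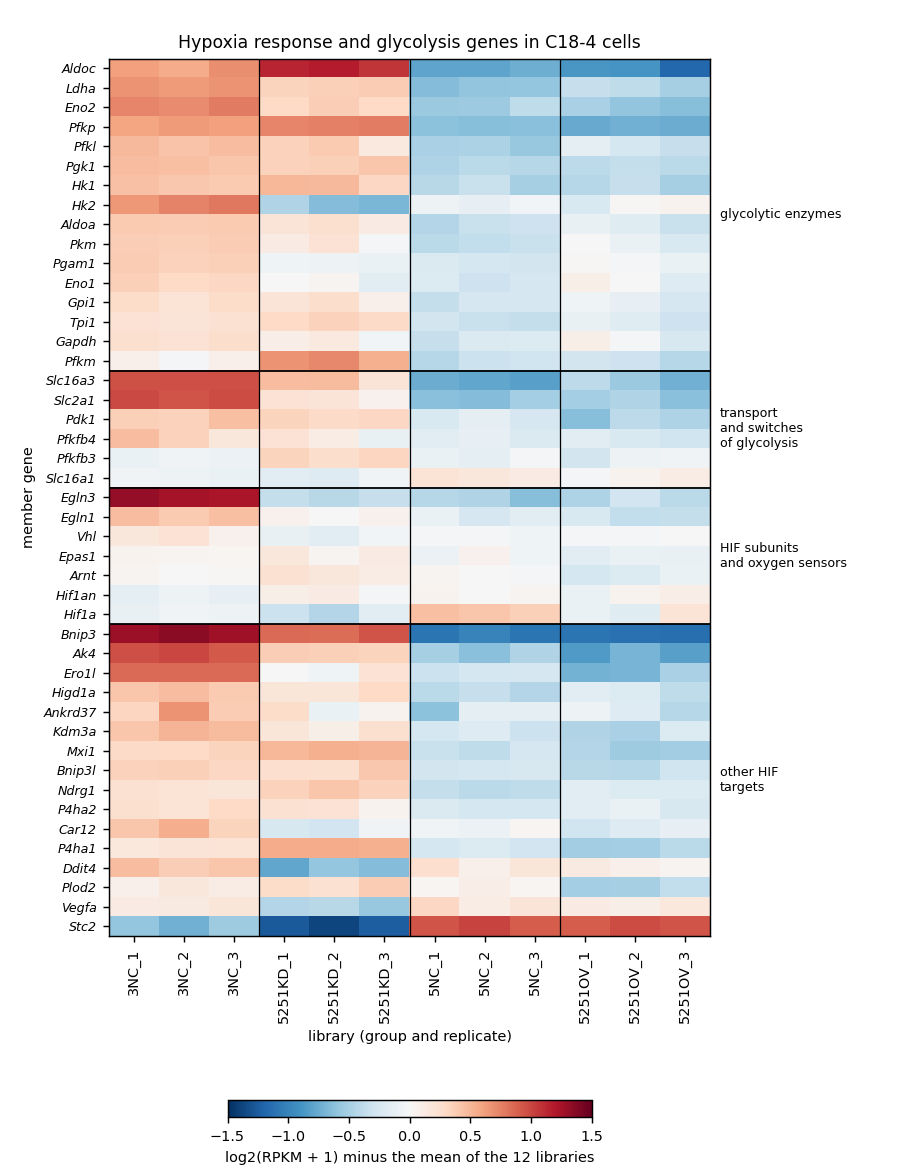
Level of the 45 tested members (rows, by role) in the 12 libraries (columns, 3 per group), as log2(RPKM + 1) minus the mean of the 12 libraries, red above and blue below. Most enzymes and other HIF targets are red in 3NC and KD and blue in 5NC and OV, while Stc2 is red in 5NC and OV.

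Against 5NC in place of 3NC, 34 members were higher in KD and 6 lower, beside 34.0% and 31.4% of all genes, with 4 past the study's threshold upwards (1.26% of all genes) and 1 downwards (2.29% of all genes). On RPKM itself Pfkm and Ak4 were at 2.02 and 2.0 times their 5NC mean, and fell short of the threshold on the log2(RPKM + 1) scale (0.99 and 0.88). In that comparison the vector cannot be told apart from the knockdown. The comparisons of KD and of 5NC with 3NC share the 3NC libraries, and those with 5NC share the 5NC libraries, so they are set side by side and are not independent. In the test of the knockdown effect minus the overexpression effect, each against its own vector control, 23 members were lower and 8 higher, beside 20.7% and 31.2% of all genes. Egln3, Hk2 and Ddit4 passed the study's threshold downwards in that test (1.41% of all genes), with log2 differences of -1.75, -1.35 and -1.01.

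**Figure D2:**
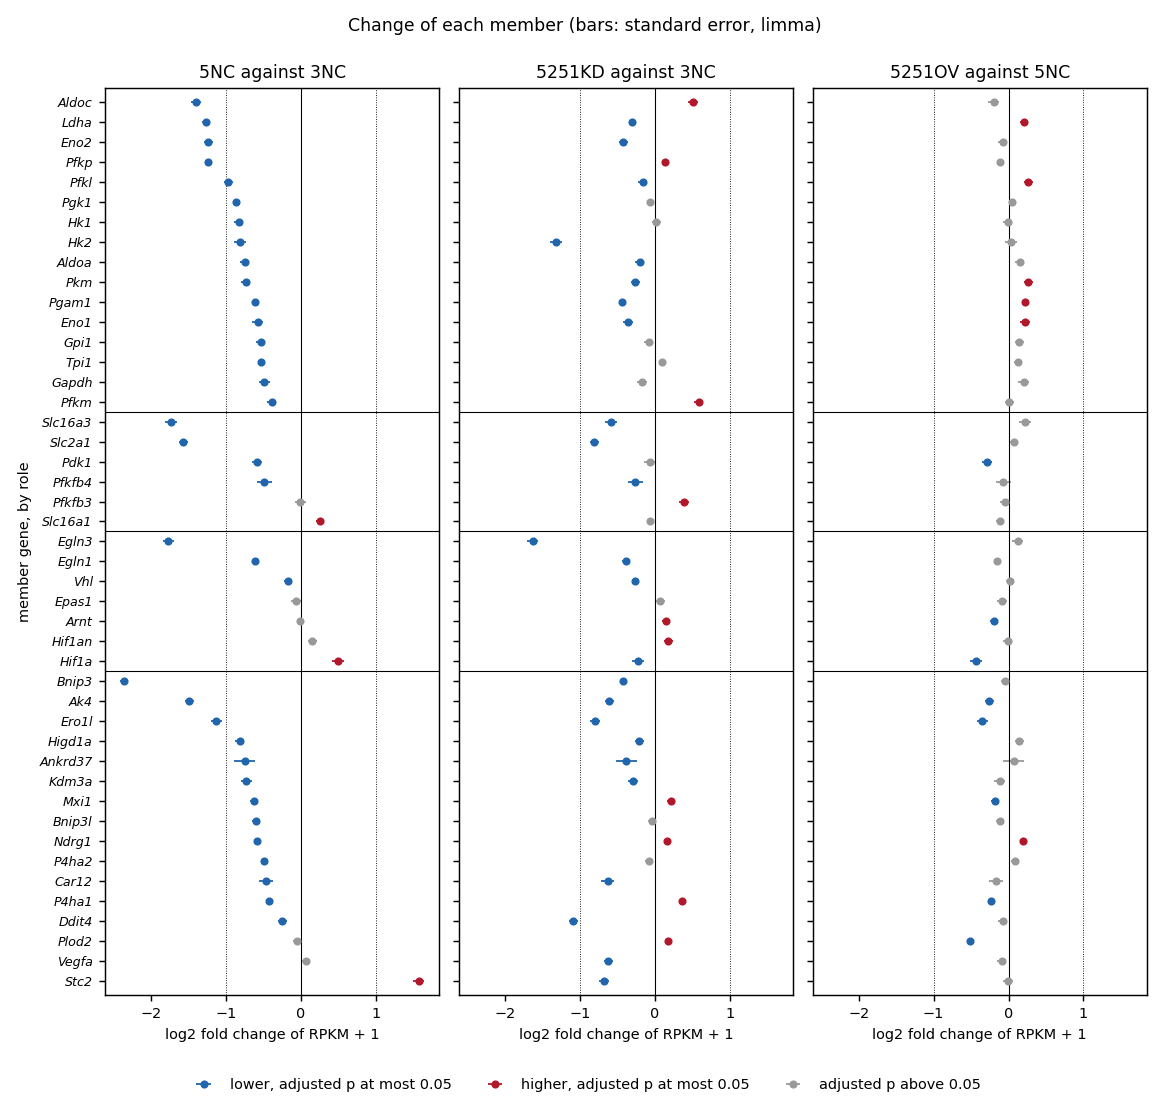
Log2 fold change of RPKM + 1 (x axis) of each tested member (rows, by role) in the comparisons of KD with 3NC, OV with 5NC and 5NC with 3NC, with the limma standard error as bars, blue for lower, red for higher and grey for an adjusted p above 0.05. In 5NC against 3NC 36 members are called lower, while in OV against 5NC the members lie between -0.51 and 0.26.

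Egln3, a prolyl hydroxylase that HIF itself induces, had the largest decrease of the members in KD against 3NC. It was at 35.3, 33.7 and 33.1 RPKM in 3NC, at 10.4, 9.99 and 10.5 in KD, at 9.86, 9.67 and 8.41 in 5NC, and at 9.57, 11.0 and 10.1 in OV. The 3NC libraries stood alone above the other 9. Against 3NC its log2 fold change was -1.63 in KD (SE 0.07, adjusted p = 7.69e-11) and -1.77 in 5NC (SE 0.07, adjusted p = 1.58e-11). Between KD and 5NC it was 0.13 (SE 0.07, adjusted p = 0.0865). Egln1, the main sensor, was at 41.6 ± 1.11 RPKM in 3NC and 31.4 ± 0.843 in KD, and at 27.0 ± 1.58 in 5NC and 24.3 ± 1.40 in OV (SD, n = 3). Against 3NC Egln1 had log2 fold changes of -0.39 in KD (adjusted p = 2.27e-05) and -0.61 in 5NC (adjusted p = 2.33e-07). Within a library Egln3 was at 0.818 ± 0.027 times the RPKM of Egln1 in 3NC, and at 0.327 ± 0.00198 times in KD, at 0.346 ± 0.0364 in 5NC and at 0.423 ± 0.0506 in OV (SD, n = 3).

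The HIF subunits had patterns of their own. Hif1a, the main oxygen-regulated subunit, was at 50.3, 52.7 and 51.8 RPKM in 3NC, at 43.5, 40.1 and 48.8 in KD, at 74.8, 73.0 and 70.4 in 5NC, and at 50.7, 48.1 and 63.1 in OV. Every 5NC library was above all other libraries, so its RNA was highest in a control where most targets were low. The targets were low in OV as well, where Hif1a was at 54.0 RPKM on average beside 51.6 in 3NC. There the other HIF targets had medians of -0.36 to -0.32 per library from the mean of all libraries, beside -0.27 to -0.23 in 5NC. Limma gave a log2 fold change of 0.49 in 5NC against 3NC (SE 0.08, adjusted p = 0.00017) and -0.43 in OV against 5NC (SE 0.08, adjusted p = 0.00411). In KD against 3NC it was -0.22 (SE 0.08, adjusted p = 0.034), a call lost in 6 alternative fits with adjusted p of up to 0.149. Epas1, which encodes HIF-2 alpha, was at 4.43 to 5.83 RPKM over all libraries, with an adjusted p of 0.0736 or more in each comparison. Arnt, the common partner, was at 21.4 ± 0.316 RPKM in 3NC and 23.9 ± 1.0 in KD, and at 21.3 ± 0.424 in 5NC and 18.5 ± 1.10 in OV (SD, n = 3). For Arnt limma gave a log2 fold change of 0.15 in KD against 3NC (adjusted p = 0.0222) and of -0.20 in OV against 5NC (adjusted p = 0.0184), calls lost in 4 and 5 alternative fits. Vhl, the ligase subunit, was lower by limma in KD (log2 fold change -0.26, adjusted p = 0.000814) and in 5NC (-0.18, adjusted p = 0.00815), both against 3NC. Over the 7 genes, 4 were lower and 2 higher in KD against 3NC (57.1% and 28.6%, beside 23.5% and 31.9% of all genes), and 3 were lower and 1 higher in 5NC against 3NC (42.9% and 14.3%, beside 25.6% and 31.0%).

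**Figure D3:**
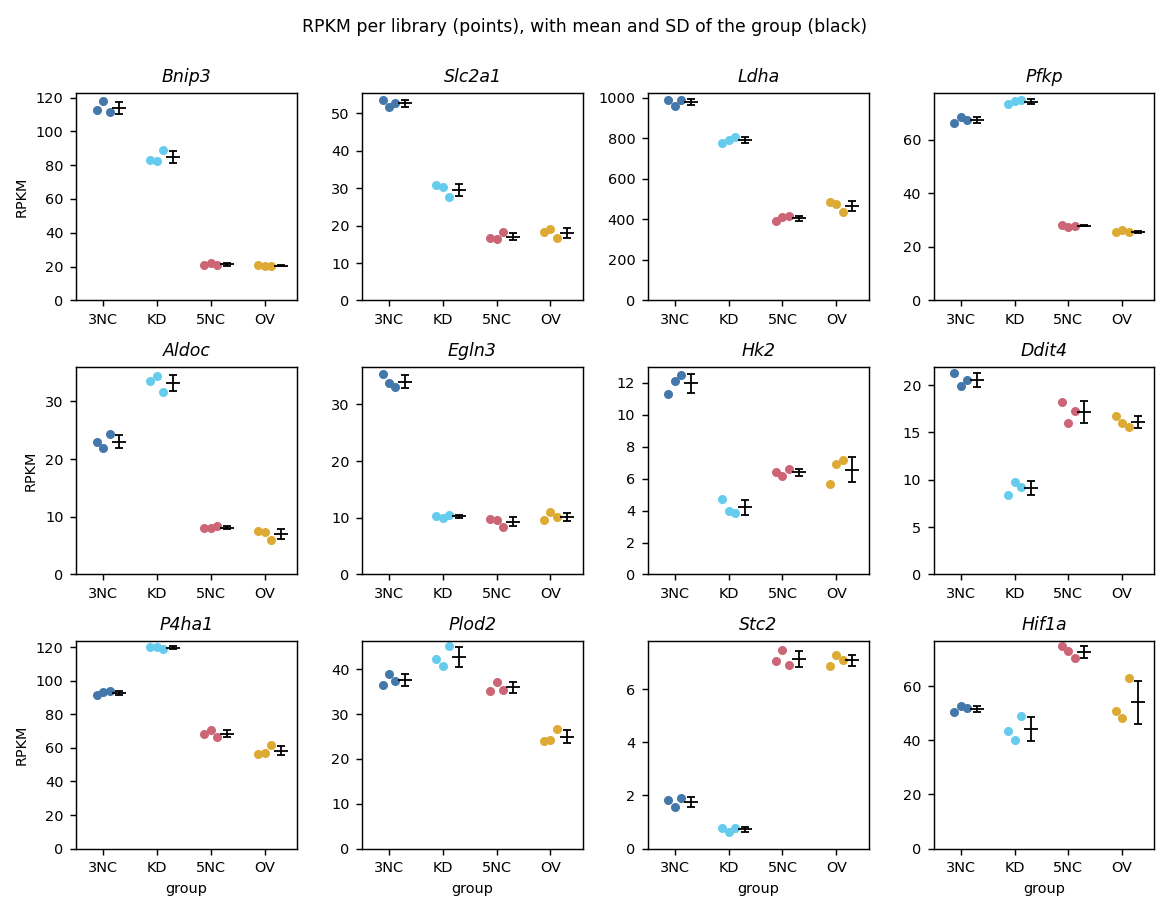
RPKM (y axis, from 0) of 12 members in each library (points), with the mean and SD of the group in black (n = 3 per group). Bnip3, Slc2a1, Ldha, Pfkp and Aldoc are low in 5NC and OV, Egln3 is high only in 3NC, Hk2 and Ddit4 are lowest in KD, and Plod2 is lowest in OV.

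The genes of glucose uptake and lactate export, Slc2a1 and Slc16a3, were also lower in the LV5 control. Slc2a1, the glucose transporter GLUT1, was at 53.5, 51.7 and 52.9 RPKM in 3NC, at 30.7, 30.2 and 27.7 in KD, at 16.7, 16.4 and 18.2 in 5NC, and at 18.3, 19.1 and 16.7 in OV. The knockdown libraries lay between those of the controls without overlap. Against 3NC its log2 fold change was -0.81 in KD (SE 0.06, adjusted p = 3.48e-08) and -1.57 in 5NC (SE 0.06, adjusted p = 1.79e-11). In OV against 5NC it was 0.07 (SE 0.06, adjusted p = 0.388). Slc16a3, the lactate exporter MCT4, was at 139 RPKM on average in 3NC, and at 92.9 ± 10.3 in KD, at 41.0 ± 1.09 in 5NC and at 48.2 ± 5.51 in OV (SD, n = 3). Limma gave a log2 fold change of -0.58 in KD (SE 0.08, adjusted p = 1.68e-05) and -1.74 in 5NC (SE 0.08, adjusted p = 1.09e-10), both against 3NC. Slc16a1, the lactate carrier MCT1, was higher in 5NC than in 3NC (log2 fold change 0.25, adjusted p = 0.00084). The RPKM of Slc16a3 was 4.14 ± 0.0989 times that of Slc16a1 in 3NC, 2.91 ± 0.461 times in KD, 1.02 ± 0.00672 times in 5NC and 1.31 ± 0.213 times in OV (SD, n = 3).

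Among the switches, Pdk1, a kinase that keeps pyruvate out of the mitochondrial cycle, was at 8.20, 8.06 and 8.81 RPKM in 3NC, 8.05, 7.71 and 7.90 in KD, 5.13, 5.53 and 5.00 in 5NC, and 3.6, 4.47 and 4.21 in OV. It was lowest in OV and did not overlap between any groups. For Pdk1 the log2 fold change was -0.59 in 5NC against 3NC (adjusted p = 6.07e-06) and -0.07 in KD against 3NC (adjusted p = 0.401). In OV against 5NC it was -0.29 (adjusted p = 0.0128), a call lost in 3 alternative fits. Pfkfb3, which makes the activator of phosphofructokinase, went up in KD from 8.83 ± 0.159 to 11.9 ± 0.341 RPKM (SD, n = 3), with a log2 fold change of 0.39 (limma adjusted p = 0.000147).

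All 16 glycolytic enzymes were lower in 5NC than in 3NC, beside 25.6% of all genes. Their log2 fold changes ran from -1.40 to -0.39 with a median of -0.78. Ldha, which turns pyruvate into lactate, was at 987, 959 and 987 RPKM in 3NC, at 777, 792 and 805 in KD, at 392, 409 and 414 in 5NC, and at 485, 473 and 438 in OV. The 4 groups did not overlap. Against 3NC its log2 fold change was -1.27 in 5NC (SE 0.05, adjusted p = 1.03e-11) and -0.30 in KD (SE 0.05, adjusted p = 4.34e-05). In OV against 5NC it was 0.20 (SE 0.05, adjusted p = 0.00866), a call lost in 1 alternative fit. Pgk1, an ATP-making step, was at 880 ± 14.9 RPKM in 3NC and 840 ± 20.5 in KD, and at 479 ± 8.86 in 5NC and 496 ± 9.03 in OV (SD, n = 3). Limma gave a log2 fold change of -0.87 in 5NC (adjusted p = 1.04e-10) and -0.07 in KD (adjusted p = 0.163), both against 3NC. Eno2, an enolase, had log2 fold changes of -1.24 in 5NC (adjusted p = 2.11e-10) and -0.42 in KD (adjusted p = 2.57e-05), both against 3NC.

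In KD against 3NC 8 enzymes were lower (50%, beside 23.5% of all genes), 3 were higher (18.8%, beside 31.9%) and 5 were not called. Hk2, the inducible hexokinase, was at 11.3, 12.1 and 12.5 RPKM in 3NC, at 4.73, 4.00 and 3.86 in KD, at 6.41, 6.16 and 6.62 in 5NC, and at 5.67, 6.89 and 7.14 in OV. The knockdown libraries were below all others. The log2 fold change in KD was -1.32 against 3NC (SE 0.08, adjusted p = 7e-09) and -0.51 against 5NC (SE 0.08, adjusted p = 7.27e-05), so it was lower than in either control. Hk1, the constitutive hexokinase, was at 30.5 ± 2.25 RPKM in KD and 30 ± 0.48 in 3NC (SD, n = 3). Hk2 was at 0.137 ± 0.0108 times the RPKM of Hk1 in KD, and at 0.399 ± 0.0263 times in 3NC, 0.389 ± 0.0367 in 5NC and 0.401 ± 0.057 in OV (SD, n = 3).

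The enzymes that were higher in KD were Pfkm, Aldoc and Pfkp. Aldoc, the brain-type aldolase, was at 22.9, 21.9 and 24.3 RPKM in 3NC, at 33.5, 34.4 and 31.7 in KD, at 8.01, 8.0 and 8.37 in 5NC, and at 7.56, 7.44 and 5.93 in OV. It was highest in KD, with log2 fold changes of 0.51 against 3NC (SE 0.07, adjusted p = 3.7e-05) and 1.91 against 5NC (SE 0.07, adjusted p = 2.39e-11). Its RPKM was 0.0437 ± 0.000112 times that of Aldoa, the main aldolase, in KD and 0.0263 ± 0.00126 times in 3NC, and 0.0156 ± 0.000583 times in 5NC and 0.012 ± 0.000718 times in OV (SD, n = 3). Pfkm, the muscle-type phosphofructokinase, was at 61.0 ± 4.00 RPKM in KD and 40.1 ± 1.52 in 3NC (SD, n = 3), a log2 fold change of 0.59 (limma adjusted p = 9.45e-07). Pfkp, the platelet type, was at 67.3 ± 1.13 RPKM in 3NC and 74.4 ± 0.811 in KD, and at 27.9 ± 0.232 in 5NC and 25.8 ± 0.375 in OV (SD, n = 3). Limma gave a log2 fold change of 0.14 in KD against 3NC (adjusted p = 0.00662, lost in 1 alternative fit) and -1.24 in 5NC against 3NC (adjusted p = 3.98e-12). Pfkl, the liver type, was lower in KD (log2 fold change -0.16, limma adjusted p = 0.0398), a call lost in 5 alternative fits. Of the RPKM of the phosphofructokinase genes, Pfkl made up 41.5 ± 0.494% in 3NC and 33.4 ± 1.49% in KD, and 39.8 ± 1.27% in 5NC and 45.1 ± 1.15% in OV (SD, n = 3). Pfkm made up 21.8 ± 0.604% in 3NC and 30 ± 0.556% in KD, but also 31.3 ± 1.41% in 5NC and, in OV, 29.7 ± 0.337% (SD, n = 3), so its share was lower in 3NC than in the other groups and was not particular to the knockdown.

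The enzymes together took 1.78 ± 0.0159% of the summed RPKM in 3NC and 1.58 ± 0.0681% in KD, but 1.16 ± 0.035% in 5NC and 1.26 ± 0.057% in OV (SD, n = 3). Without Gapdh, the most abundant of them, the shares were 1.13% in 3NC and 0.997% in KD, but 0.682% in 5NC and 0.735% in OV. Gapdh, often used as a reference gene, was itself lower in 5NC than in 3NC (log2 fold change -0.49, limma adjusted p = 4.78e-05). Some enzymes have near-identical copies between which reads can be split. Eno1b, a copy of Eno1, was listed at 620 RPKM in 3NC and 409 in 5NC on average, beside 582 and 390 for Eno1, so the values of Eno1 are uncertain.

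Among the other HIF targets, Bnip3, which directs the removal of mitochondria, had the largest difference between the controls. It was at 112, 118 and 111 RPKM in 3NC, at 83.3, 82.2 and 89.1 in KD, at 20.9, 22.3 and 20.8 in 5NC, and at 20.9, 20.5 and 20.3 in OV. The LV3 groups stood far above the LV5 groups, and KD was below 3NC without overlap. Against 3NC its log2 fold change was -2.36 in 5NC (SE 0.05, adjusted p = 4.65e-14) and -0.42 in KD (SE 0.05, adjusted p = 2.75e-06). Its relative Bnip3l, of like function, had a log2 fold change of -0.60 in 5NC against 3NC (adjusted p = 1.45e-07). Bnip3 was at 1.44 ± 0.0277 times the RPKM of Bnip3l in 3NC, 1.10 ± 0.0236 times in KD, 0.41 ± 0.0185 times in 5NC and 0.43 ± 0.0259 times in OV (SD, n = 3). Ak4, a mitochondrial adenylate kinase, was at 15.7 ± 0.504 RPKM in 3NC and 9.96 ± 0.143 in KD, and at 4.97 ± 0.358 in 5NC and 3.98 ± 0.265 in OV (SD, n = 3). Ero1l, an oxidase of the endoplasmic reticulum, was at 72.0 ± 7.50 RPKM in KD, at 56.8 ± 1.40 in 5NC and at 44.4 ± 4.15 in OV (SD, n = 3), beside a 3NC mean of 125. It was lower in 5NC (log2 fold change -1.13, limma adjusted p = 3.41e-09) and in KD (-0.80, adjusted p = 2.12e-07) than in 3NC, and in OV than in 5NC (-0.35, adjusted p = 0.00438).

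Ddit4, Vegfa and Stc2 had other patterns. Ddit4, an inhibitor of mTORC1, was at 21.3, 19.9 and 20.5 RPKM in 3NC, at 8.37, 9.76 and 9.25 in KD, at 18.2, 15.97 and 17.2 in 5NC, and at 16.8, 16.02 and 15.5 in OV. Only the knockdown libraries were low, with log2 fold changes of -1.09 against 3NC (SE 0.06, adjusted p = 3.41e-09) and -0.84 against 5NC (SE 0.06, adjusted p = 2.92e-08). Vegfa, the angiogenic growth factor, was at 50.6, 50.6 and 52.6 RPKM in 3NC, at 33.8, 34.3 and 30.8 in KD, at 57.6, 50.1 and 53.0 in 5NC, and at 50.3, 49.2 and 51.6 in OV. It too was low in the knockdown alone, with log2 fold changes of -0.62 against 3NC (SE 0.06, adjusted p = 2.74e-07) and -0.68 against 5NC (SE 0.06, adjusted p = 5.25e-08). Stc2, a secreted glycoprotein, was at 1.81, 1.55 and 1.90 RPKM in 3NC, at 0.76, 0.62 and 0.79 in KD, at 7.06, 7.48 and 6.90 in 5NC, and at 6.88, 7.28 and 7.10 in OV. It was the member that rose past the study's threshold in 5NC against 3NC (log2 fold change 1.57, SE 0.07, adjusted p = 1.63e-10), and in KD against 3NC it was lower (-0.68, SE 0.07, adjusted p = 2.06e-06). These 3 genes are also known as targets of ATF4, the transcription factor of the amino acid and stress response. Of 16 further genes of that response, Atf4 itself among them, 13 were lower and 2 higher in KD against 3NC (median -0.23), beside 23.5% and 31.9% of all genes. In 5NC against 3NC 15 were higher and 0 lower (median 0.63), beside 31.0% and 25.6% of all genes. In OV against 5NC 2 were higher, 2 lower and 12 not called (median 0.02), beside 8.07% and 13.9% of all genes. Of the 3 members only Stc2 rose in 5NC against 3NC, where limma gave a log2 fold change of -0.25 for Ddit4 (adjusted p = 0.00398) and of 0.06 for Vegfa (adjusted p = 0.37). The part of ATF4 was not tested.

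Plod2 and P4ha1, which modify collagen, were higher in KD than in 3NC and lower in OV than in 5NC. The same directions were called for Mxi1, another HIF target, and for Arnt, so the pattern was not particular to Plod2 and P4ha1. For Mxi1 the log2 fold changes were 0.21 (limma adjusted p = 0.00236) and -0.18 (adjusted p = 0.0215). Plod2, a lysyl hydroxylase, was at 36.5, 39.0 and 37.5 RPKM in 3NC, at 42.2, 40.7 and 45.3 in KD, at 35.3, 37.3 and 35.3 in 5NC, and at 24.1, 24.2 and 26.6 in OV. The OV libraries were below all others, a log2 fold change of -0.51 from 5NC (SE 0.05, adjusted p = 7.76e-05), the largest among the members in that comparison. In KD against 3NC its log2 fold change was 0.18 (SE 0.05, adjusted p = 0.0119), a call lost in 2 alternative fits. P4ha1, a prolyl hydroxylase of collagen, was at 93.0 ± 1.30 RPKM in 3NC and 120 ± 0.789 in KD, and at 68.5 ± 2.07 in 5NC and 58.4 ± 2.81 in OV (SD, n = 3). It was higher in KD than in 3NC (log2 fold change 0.36, limma adjusted p = 5.33e-06) and lower in OV than in 5NC (-0.23, adjusted p = 0.00379). The knockdown effect minus the overexpression effect was 0.69 for Plod2 (adjusted p = 4.63e-06) and 0.59 for P4ha1 (adjusted p = 2.28e-06). P4ha2, the paralog of P4ha1, had log2 fold changes of -0.08 in KD (adjusted p = 0.219) and 0.08 in OV (adjusted p = 0.287), each against its own control.

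The enzymes were then set beside the other HIF targets. In 5NC against 3NC the enzymes had a median of -0.78 with 16 of 16 lower, and the other targets a median of -0.59 with 13 of 16 lower and 1 higher, beside 25.6% lower and 31.0% higher of all genes. In KD against 3NC the medians were -0.17 and -0.34, with 8 of 16 and 10 of 16 lower and 3 and 4 higher, beside 23.5% and 31.9% of all genes, and without KD replicate 3 the median of the enzymes was -0.10. In OV against 5NC the enzymes had 5 higher and 0 lower (median 0.13), while the other targets had 1 higher and 5 lower (median -0.10), beside 8.07% higher and 13.9% lower of all genes. The 1 higher target, 6.25% of those tested, was near the share of all genes. With quantile normalization the median of the enzymes in that comparison was 0.04, and only 2 of all 45 members tested were called higher. The higher enzymes were Ldha (a call lost in 1 alternative fit), Pfkl (a call lost in 2 alternative fits), Pgam1, Eno1 and Pkm. Pkm, the pyruvate kinase, was at 862, 803 and 737 RPKM in OV beside 652, 668 and 681 in 5NC (log2 fold change 0.26, limma adjusted p = 0.0111, lost in 2 alternative fits). The OV libraries differed among themselves in these genes, and the number of members called higher was 3 without OV replicate 1 and 12 without OV replicate 3. No test of the difference between these lists was made. The transport genes and switches had medians of -0.54 in 5NC against 3NC, -0.16 in KD against 3NC and -0.06 in OV against 5NC.

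**Figure D4:**
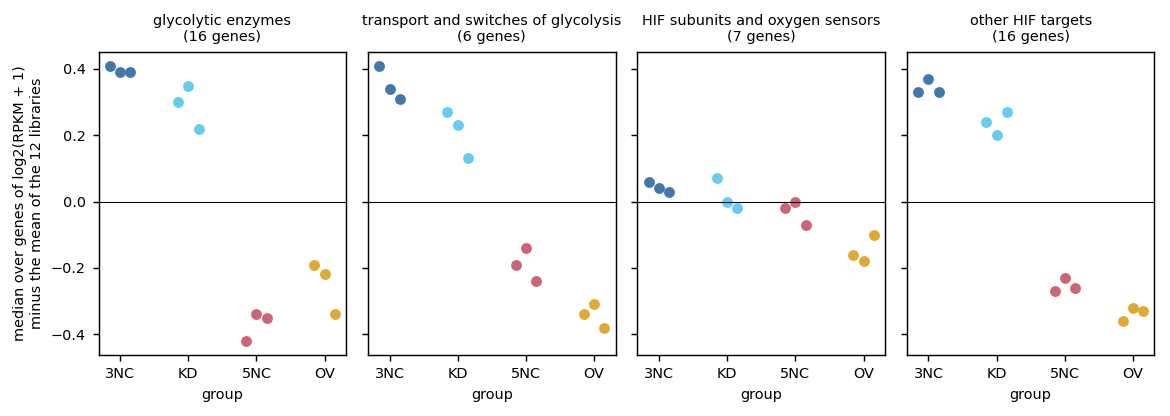
Median over the genes of each role of log2(RPKM + 1) minus the mean of the 12 libraries (y axis), with 1 point per library by group (x axis). The enzymes lie at 0.39 to 0.41 in 3NC, 0.22 to 0.35 in KD, -0.42 to -0.34 in 5NC and -0.34 to -0.19 in OV, and the subunits and sensors between -0.18 and 0.07.

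Genes of the pathway that are no members were counted in the same way. Of 27 further hypoxia genes, 21 were tested, and 13 were lower and 3 higher in KD against 3NC, 13 lower and 4 higher in 5NC against 3NC, and 2 lower and 3 higher in OV against 5NC. Their medians were -0.43, -0.29 and 0.01. In KD and in 5NC the lower genes were 61.9% of those tested, beside 23.5% and 25.6% of all genes. In OV 14.3% were higher and 9.52% lower, beside 8.07% and 13.9% of all genes. Hilpda, a lipid droplet protein, was at 50.8 RPKM on average in 3NC, 18.4 in KD, at 15.7 in 5NC and at 17.0 in OV, an order like that of Egln3. Hmox1, which degrades heme, was low in the knockdown alone, at 38.7 RPKM on average beside 110 in 3NC, 96.3 in 5NC and 99.4 in OV. Of 29 further genes of glycolysis and pyruvate use, 17 were tested, and 8 were higher and 3 lower in KD against 3NC (median 0.12), 5 higher and 5 lower in 5NC against 3NC (median 0.03), and 1 higher and 2 lower in OV against 5NC (median -0.04). These were 47.1% higher and 17.6% lower in KD, beside 31.9% and 23.5% of all genes, and 29.4% each way in 5NC, near the 31.0% and 25.6% of all genes. In OV they were 5.88% higher and 11.8% lower, near the 8.07% and 13.9% of all genes. Mpc1, a carrier of pyruvate into mitochondria, and Pdk2, another kinase of pyruvate dehydrogenase, were among the higher genes in the knockdown, with log2 fold changes of 0.37 (limma adjusted p = 1.63e-05) and 0.94 (adjusted p = 2.22e-07).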

How the data were processed

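RNA of 12 libraries was measured, 3 per group, and each group and number comes from its label. Oligo(dT) beads selected the mRNA (the labels name total RNA), which was read on an Illumina instrument and aligned by SOAPaligner, as the study's supplementary text states, and the values the authors deposited were taken as RPKM from that text, since the file header gives no unit. The genome build was not given in the sources used here. RPKM keeps no read numbers, so the count test of the study (DEGseq) was not run.

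From the deposited RPKM, log2(RPKM + 1) was fitted with limma 3.58.1 in R 4.3.3, with 1 term for the group (8 residual degrees of freedom), eBayes with an intensity trend and Benjamini-Hochberg adjustment over the 11435 genes that reached 1 RPKM in 3 libraries or more. The code was tested on simulated data. The members and lists were chosen with earlier results of these data known. Named members were those past the study's threshold, the 2 with the largest called change per role and comparison, and 15 chosen by role, and also partners in the family ratios. Bnip3l, P4ha1, P4ha2, Mxi1, Adm, Car12, Ankrd37, Pfkfb3, Gapdh, Pgam1, Hilpda, Hmox1, Mpc1 and Pdk2 were named after their values were seen. Alternatives were the study's threshold, a pseudocount of 0.1, no filter, quantile normalization, median ratio scaling, a fit to the libraries compared, a replicate block and each library left out.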

Additional observations from a re-analysis of the deposited data

How the results depend on the processing

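Alternative values of single members covered 125 comparisons, those of the tested members named by rule. Members named after their values were seen, or only as partners in the family ratios, were not among them. Of 1275 such values, 1229 kept their direction or stayed uncalled on the same side of the threshold, 37 lost the call, 9 gained one and 0 called values reversed. Of the 1229, 13 that were uncalled in both fits changed sign. Of 186 counts and medians, 150 stayed close to the reported value. By construction the study's threshold gave fewer members: 0 higher and 3 lower in KD against 3NC, 0 and 0 in OV against 5NC, 1 and 10 in 5NC against 3NC, and 4 and 1 in KD against 5NC. Median ratio scaling gave 6 members higher in KD against 3NC and 12 in OV against 5NC. Quantile normalization gave 2 higher and 5 lower in OV against 5NC, and the fit to the libraries compared 5 lower. For these counts and the medians that follow the cause was not tested. The median of the enzymes under quantile normalization was 0.04 in OV against 5NC, -0.67 in 5NC against 3NC and 0.57 in KD against 5NC. The median of the other HIF targets was -0.37, -0.63 and 0.50 with a pseudocount of 0.1 in KD against 3NC, 5NC against 3NC and KD against 5NC. With median ratio scaling it was -0.38 in KD against 3NC, -0.07 in OV against 5NC and -0.62 in 5NC against 3NC. With quantile normalization it was -0.63 in 5NC against 3NC and 0.45 in KD against 5NC, and with Egln1 and Egln3 counted as targets -0.39 in KD against 3NC and 0.39 in KD against 5NC. With each library left out in turn, members higher and lower were 8 to 10 and 21 to 24 in KD against 3NC, 3 to 12 and 6 to 11 in OV against 5NC, 3 and 36 in 5NC against 3NC, and 31 to 34 and 6 to 7 in KD against 5NC. The median of the enzymes was then -0.21 to -0.10 (the last without KD replicate 3), 0.10 to 0.19, -0.78 to -0.76 and 0.69 to 0.72 in these comparisons, and that of the other HIF targets -0.37 to -0.27, -0.13 to -0.08, -0.61 to -0.58 and 0.40 to 0.47.

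With a replicate block, 10 members were higher and 25 lower in KD against 3NC, 7 and 9 in OV against 5NC, and 3 and 36 in 5NC against 3NC. The deviations of libraries with the same number correlated at -0.178 to 0.354 over 18 pairs (median 0.00758), and those with other numbers at -0.358 to 0.296 over 36 pairs (median -0.00393), so the numbers were not used as pairs. The labels do not say what a number stands for, and a shared batch or day was not tested.

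The unknown number of reads limits what low members such as Stc2, Car12 and Pfkfb4 can show, and 3 libraries per group limit the smaller changes of OV.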
